A study of Mus musculus with 6 samples.

Results

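The genes described here make cholesterol and fatty acids, or switch that synthesis on and off. They are 31 genes, found by symbol among the 48709 rows of the gene count table, and each symbol matched 1 row. There were 5 SREBP regulators, 7 enzymes of the mevalonate branch, 10 enzymes from squalene to cholesterol and 9 fatty acid enzymes. The cells were macrophages of the peritoneal cavity, sorted for F4/80 and CD11b from C57BL/6 mice of 6 to 8 weeks that had received no treatment. The study compared wild-type mice with Zeb1 (+/-) mice, which carry 1 intact copy of the gene for the transcription factor ZEB1. There were 3 libraries of each genotype, each from a pool of 2 mice, so errors below reflect variation between pools and not between single mice. An SD is the spread between pools, while the SE of a log2 fold change comes from a fit that shares information on spread across genes. The labels describe neither the allele nor a cell type to which the Zeb1 deficit is limited.

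SREBP-1 and SREBP-2, the products of Srebf1 and Srebf2, are transcription factors that are made as membrane proteins of the endoplasmic reticulum. SCAP escorts them to the Golgi, where proteases release the active part, and the INSIG proteins hold SCAP back when sterols are plentiful. SREBP-2 mainly drives the enzymes that turn acetyl-CoA into cholesterol, and SREBP-1 those of fatty acid synthesis and desaturation. In macrophages the oxysterol receptors LXR work in the opposite sense on sterols: they drive cholesterol export and, beside it, Srebf1 and Scd1.

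Libraries held between 17859872 and 42165006 counts. Levels are given as CPM, counts scaled to library size after TMM adjustment, where 1 CPM stands for 17.9 to 42.3 counts. Lists of values name replicates 1, 2 and 3 in that order. Zeb1 itself was measured at 5.44, 7.56 and 7.22 CPM in the wild-type libraries and at 3.85, 3.45 and 3.62 CPM in the Zeb1 (+/-) libraries. Its log2 fold change, Zeb1 (+/-) over wild-type, was -0.89 (edgeR adjusted p = 0.0522). Zeb1 thus missed the adjusted p threshold of 0.05 used below, and it passed that threshold in 4 of 15 other fits. Macrophage markers were abundant, but some differed between genotypes. For the F4/80 gene, Adgre1, levels ranged from 2159 to 2230 CPM in wild-type and from 2604 to 2646 CPM in Zeb1 (+/-). Its log2 fold change was 0.26 (edgeR adjusted p = 0.111). Of the 8 macrophage markers, 3 (Adgre1, Icam2 and Gata6) were higher in all Zeb1 (+/-) libraries than in any wild-type library. In the other direction, 1 (Csf1r) was lower in all of them. The median log2 fold change of the 8 was 0.05. The 8 adipocyte markers checked, of interest because fat cells are rich in these enzymes, summed to between 1.05 and 2.57 CPM, and 4 of them, Adipoq among them, had 0 counts in all 6 libraries. Markers of T and NK cells and of mesothelium and fibroblasts summed to at most 1.77 and 1.42 CPM. Eosinophil and mast cell markers and neutrophil markers summed to at most 3.03 and 2.24 CPM. The 8 B cell markers summed to 144, 130 and 258 CPM in wild-type and to 107, 92.8 and 79.1 CPM in Zeb1 (+/-). Each of the 8 was lower in all Zeb1 (+/-) libraries than in any wild-type library. A fit with their mean as a covariate, the B cell covariate below, therefore cannot clearly separate B cell content from genotype. The 8 markers of proliferating cells summed to between 70.9 and 124 CPM, highest in wild-type replicate 3 and next in Zeb1 (+/-) replicate 2. Small structural RNA, which stood at 4.14 and 8.69 CPM in wild-type replicates 1 and 2, stood at 42.2 CPM in wild-type replicate 3 and between 43.6 and 45.5 CPM in Zeb1 (+/-). Wild-type replicates 1 and 2 form the low structural RNA class below, and all other libraries the high class. A fit with this class as a term therefore compares the Zeb1 (+/-) libraries with wild-type replicate 3 alone. Wild-type replicate 3 thus stood apart from the other wild-type libraries, and values without it are given beside the members that move most with it. On structural RNA it resembled the Zeb1 (+/-) libraries. Without it, genotype and structural RNA class coincide, so values without it cannot tell the 2 apart.

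Start sites of 25 of the 31 members were covered by RefSeq promoter windows (build GRCm38.p6) reaching from 250 bases before to 50 bases after the start. A set of 3 motifs was searched on both strands. The letters CCAAT, bound by the factor NF-Y that acts beside SREBPs, stood in a window of 20 of the 25 members (80.0%) against 41.1% of all genes with a window. The SREBP-type motif TCACNCCAC stood in 1 member, Hmgcs1, where 1.44% of all genes have it. The E-box CAGGTG, of the kind that ZEB1 binds, stood in 5 members, Srebf1, Srebf2, Insig2, Pmvk and Lss, where 22.6% of all genes have it. A match is a run of letters and was not tested for binding. The 250 bases before the start of 4 members are printed 5′ to 3′ on the strand of the gene, with every match in capitals, because they show the motifs side by side. A match on the other strand reads ATTGG for CCAAT, and CACCTG for the E-box. They lie, all on the plus strand, at chr13:119690101-119690350 (Hmgcs1), chr5:114444019-114444268 (Mvk), chr13:8885356-8885605 (Idi1) and chr10:76531355-76531604 (Lss).
Hmgcs1: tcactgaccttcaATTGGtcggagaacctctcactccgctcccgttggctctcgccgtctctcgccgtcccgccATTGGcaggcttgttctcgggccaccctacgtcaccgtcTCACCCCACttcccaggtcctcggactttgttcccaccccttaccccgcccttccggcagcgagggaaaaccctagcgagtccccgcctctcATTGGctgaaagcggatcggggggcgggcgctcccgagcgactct
Mvk: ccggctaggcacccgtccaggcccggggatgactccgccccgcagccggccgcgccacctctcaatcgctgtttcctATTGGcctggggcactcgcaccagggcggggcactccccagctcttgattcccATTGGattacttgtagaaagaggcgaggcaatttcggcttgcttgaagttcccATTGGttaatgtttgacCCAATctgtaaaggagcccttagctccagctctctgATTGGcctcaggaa
Idi1: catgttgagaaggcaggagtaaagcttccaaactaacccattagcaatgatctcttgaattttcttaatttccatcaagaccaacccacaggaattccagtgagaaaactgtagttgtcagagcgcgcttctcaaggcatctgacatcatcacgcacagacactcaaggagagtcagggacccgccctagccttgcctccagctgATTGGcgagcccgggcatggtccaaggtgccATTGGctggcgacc
Lss: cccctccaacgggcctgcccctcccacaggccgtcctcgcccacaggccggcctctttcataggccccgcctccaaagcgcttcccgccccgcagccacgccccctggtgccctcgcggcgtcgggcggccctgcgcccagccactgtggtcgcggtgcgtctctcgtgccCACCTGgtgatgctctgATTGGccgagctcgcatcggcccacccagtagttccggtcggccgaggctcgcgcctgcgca
Hmgcs1 holds the SREBP-type match with its leftmost base at -137, between CCAAT matches at -176 and -45. Mvk holds 5 CCAAT matches, the most of any member. In Idi1 there are 2, at -45 and -14, and in Lss an E-box at -79 stands before a CCAAT match at -62.

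**Figure D1:**
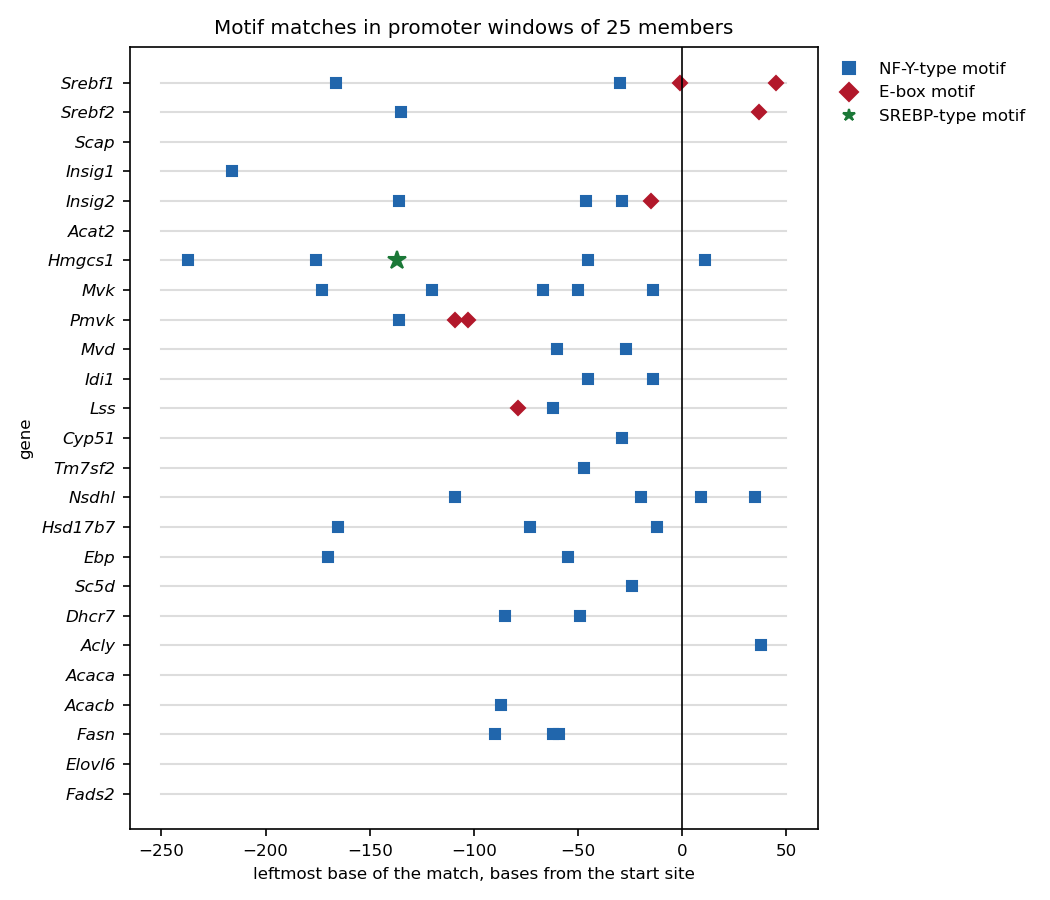
Motif matches in the promoter windows of 25 members, with 1 row for each gene (windows of a gene with several start sites are laid over each other). The x axis is the distance in bases of the leftmost base of a match from the start site, squares are CCAAT (NF-Y-type) matches, diamonds E-boxes and the star the SREBP-type match of Hmgcs1. CCAAT matches appear in 20 of the 25 rows.

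Resting peritoneal macrophages expressed these genes at very unequal levels. Per kilobase of merged exons, Acly, the ATP citrate lyase that makes cytosolic acetyl-CoA, averaged 234 CPM per kb over the 6 libraries, above 98.7% of the 12940 tested genes. Acaca, the acetyl-CoA carboxylase that makes malonyl-CoA in the cytosol, averaged 23.9 CPM per kb. Fatty acid synthase, Fasn, was lower at 6.50 CPM per kb. The tested members that desaturate or elongate fatty acids were lower again. Scd2 and Scd1, which put the first double bond into saturated fatty acids, averaged 3.28 and 1.67 CPM per kb. Fads1 averaged 0.547 and the elongase Elovl6 0.525 CPM per kb. Acacb, the mitochondrial carboxylase, averaged 0.0782 CPM per kb. The desaturase gene Fads2 had 1, 2 and 0 counts in wild-type and 0, 3 and 0 counts in Zeb1 (+/-). It was the only member of the 31 that did not pass the filter on low counts, and it had no test. The acetyl-CoA end of the pathway was therefore far more abundant as mRNA than the desaturation end.

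Among the regulators Insig1 was the most abundant, at 21.4 CPM per kb, followed by Srebf2 at 12.7 and Srebf1 at 11.3. Insig1 stood between 3.95 and 5.0 times above Insig2 per length in the 6 libraries. The ratio of Srebf1 to Srebf2 lay between 0.815 and 1.00, so the 2 SREBP genes were near equal in each library. Of the 17 sterol enzymes, Ebp, the isomerase that moves the ring double bond late in the pathway, averaged 21.7 CPM per kb. The next was Mvd, the mevalonate diphosphate decarboxylase, at 6.31. Hmgcs1, which makes HMG-CoA, averaged 5.37 CPM per kb and Idi1, the isopentenyl diphosphate isomerase, 5.35. The lowest were Hsd17b7 at 0.783 and Sqle, the squalene epoxidase that carries out a rate-limiting, oxygen-dependent step, at 0.740. Merged exons count every annotated isoform, so levels per length are understated for genes with long rare isoforms such as Lss, whose merged exons span 10787 bases.

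**Figure D2:**
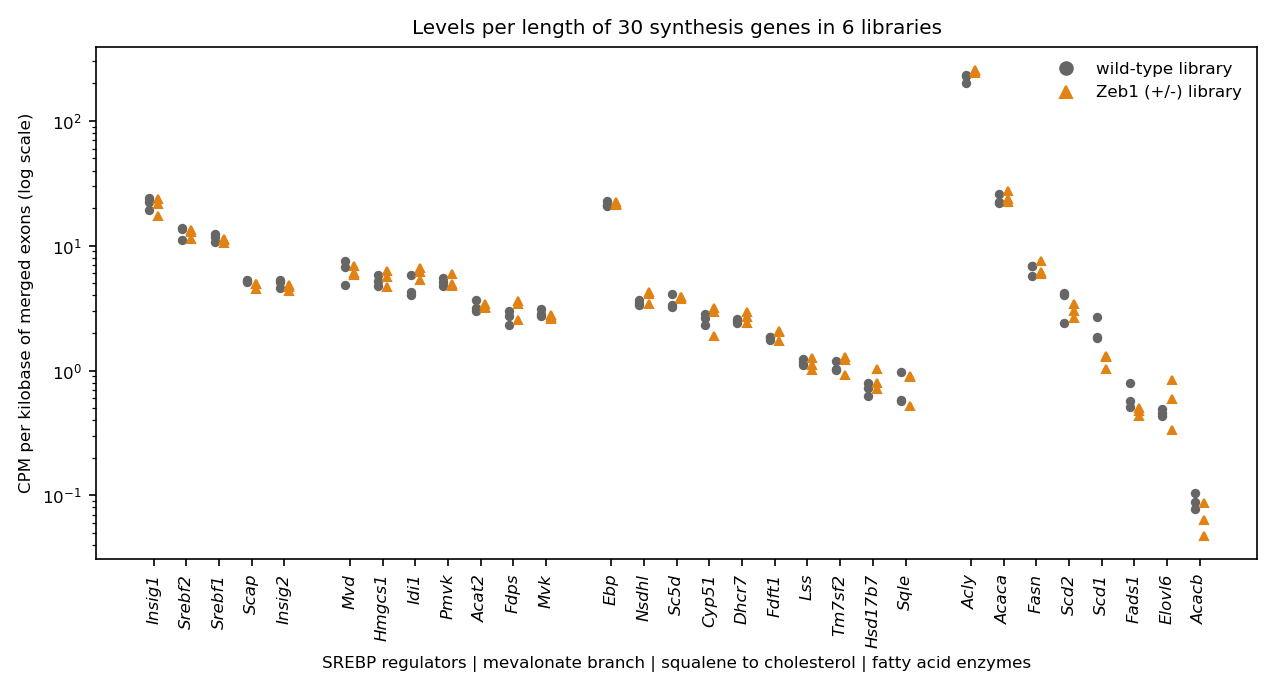
Level of each of the 30 tested members in CPM per kilobase of merged exons, on a log scale, ordered within 4 role groups by mean. Circles are the 3 wild-type libraries and triangles the 3 Zeb1 (+/-) libraries; Acly averaged 234 and Acacb 0.0782 CPM per kb, and the symbols of both genotypes lie close together for most genes.

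The comparison of genotypes asked whether this synthesis programme differs when 1 copy of Zeb1 is missing. In the edgeR quasi-likelihood fit 0 of the 30 tested members passed an adjusted p of 0.05 in either direction, where 0.587% of all 12940 tested genes did (0.155% higher and 0.433% lower). At an unadjusted p under 0.05 there were 3 of 30 members, against 14.6% of all genes. These were Idi1 and Acly, higher in Zeb1 (+/-), and Scd1, lower. Groups did not overlap for 4 members, Acly on the higher side and Scd1, Fads1 and Scap on the lower, against 19.9% of all genes (9.6% higher and 10.3% lower). The median log2 fold change of the 30 members, Zeb1 (+/-) over wild-type as throughout, was 0.02, beside -0.00038 for all genes. Both shares of members were below the background shares. Intervals come from the fit with genotype as its only term. The 95% confidence interval of 28 of the 30 members lay within 2-fold in both directions, as it did for 88% of all genes. That of 21 lay within 1.5-fold (72.6% of all genes). The members whose interval reached past 2-fold were Scd1 and Acacb. Some estimates left their interval when another term was added. Mvd, with an interval from -0.38 to 0.30, was at 0.37 with the structural RNA class and -0.57 with the B cell covariate.

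**Figure D3:**
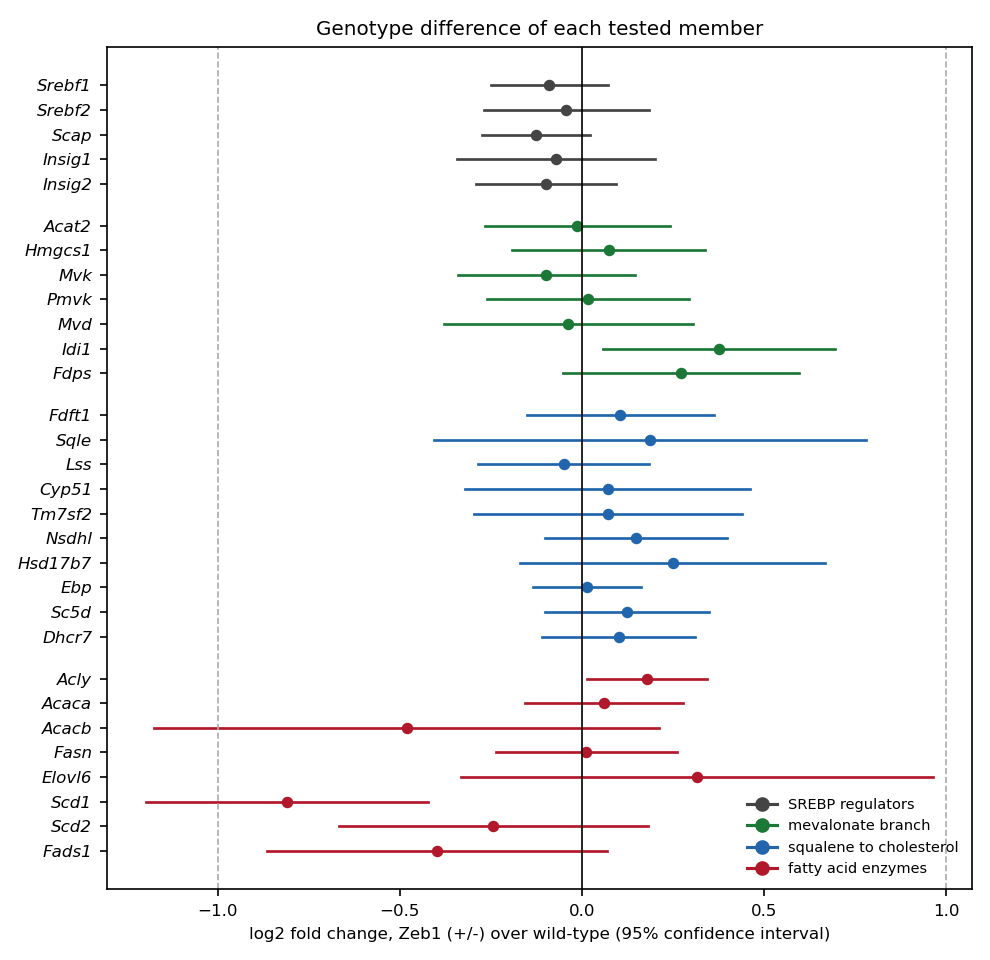
Log2 fold change of each of the 30 tested members, Zeb1 (+/-) over wild-type, with its 95% confidence interval from the edgeR fit, coloured by role. Dashed lines mark 2-fold in each direction. Most intervals include 0; those of Scd1, Idi1 and Acly do not, and all 3 missed the threshold after adjustment.

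All 5 regulators had log2 fold changes a little below 0, with a median of -0.09. Srebf1 (chromosome 11, 60199089 to 60222581, minus strand of GRCm38) was at 60.7, 70.0 and 66.0 CPM in wild-type and at 63.4, 59.4 and 62.1 CPM in Zeb1 (+/-). The groups overlapped, with a log2 fold change of -0.09 ± 0.07 (SE; edgeR adjusted p = 0.597). Gene counts do not separate the SREBP-1a and SREBP-1c transcripts. Srebf2 (chromosome 15, 82147181 to 82205379, plus strand) was at 79.4, 97.6 and 100.1 CPM and at 80.6, 93.0 and 95.1 CPM. Replicate 1 of each genotype was the low library for Srebf2, and its log2 fold change was -0.04 (95% interval -0.27 to 0.19).

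Scap, the escort, was at 37.9, 39.9 and 39.0 CPM in wild-type and 33.7, 36.5 and 36.8 CPM in Zeb1 (+/-). The groups did not overlap, with Zeb1 (+/-) lower by a small margin. Its log2 fold change was -0.12 ± 0.07 (SE; edgeR adjusted p = 0.417), with an interval from -0.27 to 0.02. Insig1, itself an SREBP target and so a readout of SREBP activity, was at 59.6, 69.3 and 75.0 CPM in wild-type and 53.4, 67.2 and 72.6 CPM in Zeb1 (+/-). Both groups spanned nearly the same range, with replicate 1 lowest and replicate 3 highest in each. Insig2 was at 16.0, 17.8 and 18.3 CPM and at 15.2, 16.9 and 16.3 CPM (log2 fold change -0.10, interval -0.29 to 0.09). Srebf2 and Insig1 took a positive sign without wild-type replicate 3 (0.02 and 0.0043) and without Zeb1 (+/-) replicate 1 (0.03 and 0.05). The sign of these differences is therefore not fixed by the data.

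The 7 enzymes of the mevalonate branch turn acetyl-CoA into farnesyl diphosphate. They had a median log2 fold change of 0.02, with 4 above 0, and 0 passed the threshold. Idi1 (chromosome 13, 8885501 to 8892451, plus strand) was at 14.8, 14.1 and 20.4 CPM in wild-type and 18.6, 23.1 and 21.4 CPM in Zeb1 (+/-). Wild-type replicate 3 lay inside the Zeb1 (+/-) range, and the other 2 wild-type libraries lay below it. The log2 fold change was 0.38 ± 0.14 (SE; edgeR adjusted p = 0.276). It was 0.55 without wild-type replicate 3, 0.76 when the mean of the B cell markers was a covariate and 0.05 when the structural RNA class of the libraries was a term. The edgeR fit without a filter on low counts called Idi1 higher (0.40, adjusted p = 0.0460), where it called 2.47% of all genes in either direction. Of the 50-base stretches of Idi1, 17.7% also occur in transcripts of other genes, most of them in Gm13502, which had 4 counts in all libraries together.

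Fdps, which makes farnesyl diphosphate, was at 12.5, 9.73 and 11.5 CPM in wild-type and at 10.8, 15.3 and 14.3 CPM in Zeb1 (+/-). Zeb1 (+/-) replicate 1 lay among the wild-type values, and the log2 fold change was 0.27 (adjusted p = 0.415 by edgeR). Fdps shares 26.2% of its stretches with other genes, the most with Gm43738, which had 0 counts in all. Mvd was at 12.4, 14.1 and 9.03 CPM and at 10.8, 11.3 and 12.7 CPM, with wild-type replicate 3 the lowest library. Its log2 fold change was -0.04, and it was -0.18 without that library. Hmgcs1 was between 21.7 and 26.8 CPM in wild-type and between 21.3 and 28.7 CPM in Zeb1 (+/-). The other 3 enzymes, the thiolase Acat2 and the kinases Mvk and Pmvk, had log2 fold changes between -0.10 and 0.02. Acat2 shares 39.1% of its stretches with other genes, chiefly with its close copy Acat3, which was given 6 counts in all.

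The 10 enzymes from squalene to cholesterol had log2 fold changes between -0.05 and 0.25 and a median of 0.10. There were 9 above 0, against 49.9% of all genes, and 0 with an unadjusted p under 0.05 (6.3% of all genes in the higher direction). The count above 0 was 7 with the B cell markers as a covariate, when the structural RNA class was added, and without Zeb1 (+/-) replicate 2. Ebp was steady in every library, at 52.6, 49.3 and 47.6 CPM in wild-type and 48.7, 52.1 and 50.2 CPM in Zeb1 (+/-). Its interval was -0.14 to 0.16. Sqle varied far more, at 3.21, 3.16 and 5.36 CPM in wild-type and 2.90, 5.01 and 4.96 CPM in Zeb1 (+/-). Each genotype held low and high libraries for Sqle, and its interval ran from -0.41 to 0.78. The log2 fold change of Sqle was 0.19, and it was 0.46 without wild-type replicate 3 and -0.29 with the structural RNA class. Cyp51, the lanosterol demethylase, was between 10.2 and 12.6 CPM in wild-type and at 8.37, 13.1 and 13.9 CPM in Zeb1 (+/-) replicates 1, 2 and 3. Nsdhl, Hsd17b7, Sc5d and Dhcr7, which act on the late sterol intermediates, had log2 fold changes of 0.15, 0.25, 0.12 and 0.10, each with an interval that includes 0. Fdft1, the squalene synthase, was at 7.70 ± 0.281 and 8.23 ± 0.847 CPM (mean ± SD, n = 3 each). Of its exon length 18.3% overlaps Ctsb on the opposite strand, a gene with 580804 counts in all against 1403 for Fdft1, and the strand setting of the counting was not given in the sources used here. Lss and the sterol reductase gene Tm7sf2 had log2 fold changes of -0.05 and 0.07. Of the exon length of Tm7sf2, 12.1% overlaps Vps51 on the same strand, a gene with 8495 counts in all against 842 for Tm7sf2. Summed over the 17 sterol enzymes, expression was 226, 218 and 229 CPM in wild-type and 218, 249 and 244 CPM in Zeb1 (+/-).

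The 9 fatty acid enzymes held the lowest log2 fold changes of the members. Of the 8 tested, 4 were above 0 and 4 below, and 0 passed the threshold. Scd1 (chromosome 19, 44394455 to 44407879, minus strand) was at 8.98, 9.12 and 13.1 CPM in wild-type and at 6.42, 6.26 and 5.06 CPM in Zeb1 (+/-). All 3 Zeb1 (+/-) libraries lay below all 3 wild-type libraries, with wild-type replicate 3 far the highest. Mean levels of Scd1 were 10.4 ± 2.35 and 5.91 ± 0.746 CPM (SD over 3 libraries each). The log2 fold change was -0.81 ± 0.17 (SE; 95% interval -1.20 to -0.42), and the edgeR adjusted p of 0.0855 missed the threshold. Without wild-type replicate 3 it was -0.62 (adjusted p = 0.127), and over the 6 fits that left out 1 library it lay between -0.91 and -0.62. DESeq2 called Scd1 lower (adjusted p = 0.00259), where it called 2.77% of its tested genes and 1.85% of them lower. The edgeR fit without a filter called it lower too (adjusted p = 0.000679; 2.47% of genes called, 1.49% lower). So did the edgeR fit with the structural RNA class (-1.16, adjusted p = 0.0484; 0.24% called, 0.209% lower). An adjusted p under 0.1, a looser limit that Scd1 met in the edgeR fit, was reached by 1.65% of genes, 1.18% lower. In the fit with the mean of the B cell markers as a covariate the log2 fold change was -0.22 (adjusted p = 0.604). All 8 B cell markers had groups that did not overlap, lower in Zeb1 (+/-), and were highest in wild-type replicate 3, as Scd1 was. Their part in the Scd1 difference was not tested. In bulk libraries such as these, fewer cells of a type and less RNA per cell cannot be told apart.

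Scd2, the neighbouring desaturase gene on chromosome 19, was at 22.1, 22.9 and 13.1 CPM in wild-type and at 14.4, 16.3 and 18.6 CPM in Zeb1 (+/-). Wild-type replicate 3, the highest library for Scd1, was the lowest for Scd2. Per length, Scd2 stood at 2.20, 2.25 and 0.895 times Scd1 in wild-type replicates 1, 2 and 3 and at 2.01, 2.33 and 3.30 times in Zeb1 (+/-). The log2 fold change of Scd2 was -0.24 (interval -0.67 to 0.18), and it was -0.98 with the B cell covariate but 0.33 with the structural RNA class as a term. Without wild-type replicate 3 it was -0.44 (edgeR adjusted p = 0.160), below 0 as Scd1 was, with both remaining wild-type libraries above all 3 Zeb1 (+/-) libraries. The 2 genes share few stretches with other genes (4.56% for Scd1 and 3.97% for Scd2). Fads1, the delta-5 desaturase of polyunsaturated fatty acids, was at 2.46, 2.73 and 3.82 CPM in wild-type and 2.29, 2.08 and 2.41 CPM in Zeb1 (+/-). The groups were separated by a narrow gap, with wild-type replicate 3 again the highest (log2 fold change -0.40 ± 0.21, edgeR adjusted p = 0.410). It was -0.20 without that library, 0.040 with the B cell covariate and -0.76 with the structural RNA class.

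Acly (chromosome 11, 100476353 to 100528000, minus strand) was at 1197, 1218 and 1066 CPM in wild-type and at 1329, 1273 and 1341 CPM in Zeb1 (+/-). The groups did not overlap, with Zeb1 (+/-) higher. The log2 fold change was 0.18 ± 0.07 (SE; interval 0.01 to 0.34; edgeR adjusted p = 0.308). It was 0.12 without wild-type replicate 3, 0.020 with the B cell covariate and 0.30 with the structural RNA class. Acaca, the next step, was at 380, 444 and 375 CPM and at 466, 383 and 403 CPM, with overlapping groups and a log2 fold change of 0.06. Acaca shares 30.4% of its stretches with other genes, the most with Gm5182, for which no count was found. Fasn was at 75.1, 75.2 and 62.2 CPM and at 67.1, 64.7 and 82.8 CPM. Its interval of -0.24 to 0.26, from the fit with genotype alone, lay within 1.5-fold. The log2 fold change of Fasn was -0.34 with the B cell covariate and 0.20 with the structural RNA class. Elovl6 was between 2.79 and 3.19 CPM in wild-type but at 5.36, 3.80 and 2.16 CPM in Zeb1 (+/-) replicates 1, 2 and 3. The Zeb1 (+/-) libraries thus lay on both sides of the wild-type ones for Elovl6 (log2 fold change 0.32 ± 0.29, and 0.026 without Zeb1 (+/-) replicate 1). Acacb had between 15 and 26 counts in each library, and its interval ran from -1.17 to 0.21.

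**Figure D4:**
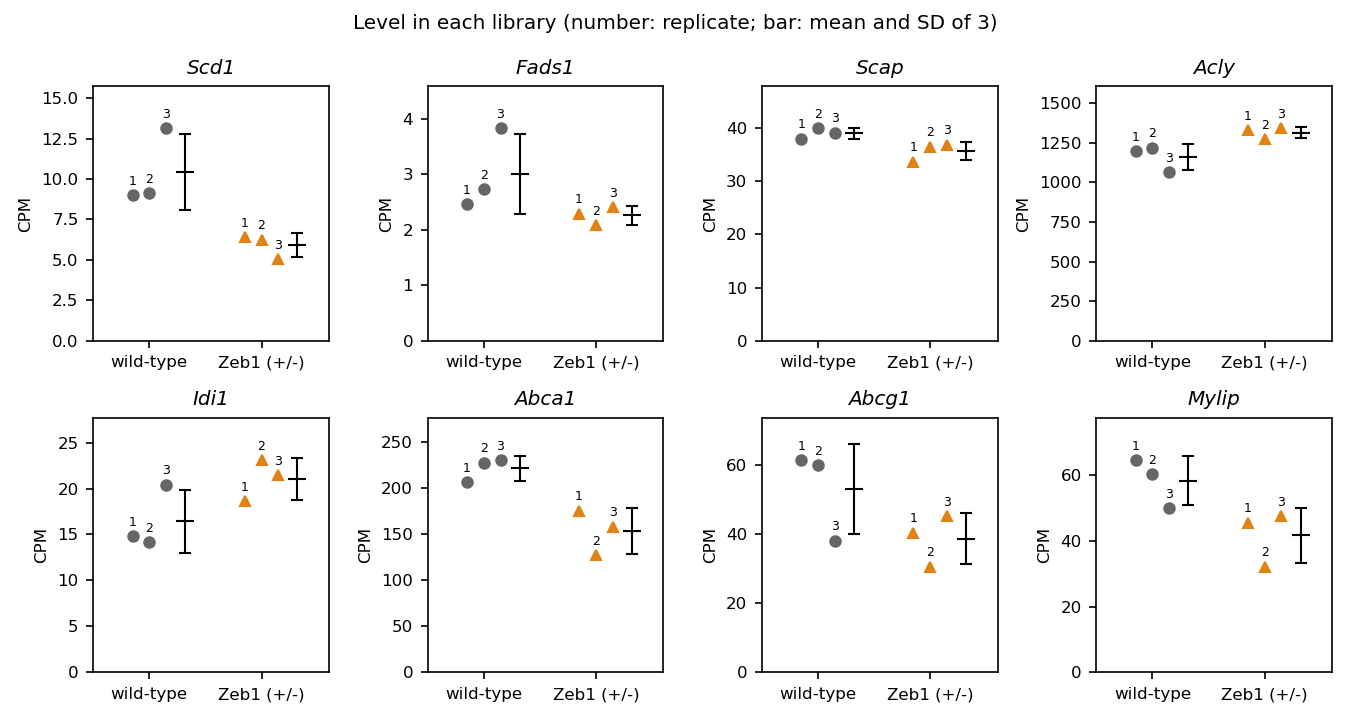
Level in CPM of 5 members (Scd1, Fads1, Scap, Acly and Idi1) and of 3 genes of the LXR axis (Abca1, Abcg1 and Mylip) in each library, with axes starting at 0. Numbers beside the symbols are replicates, and the bars give the mean and SD of 3 libraries. Scd1 lies between 8.98 and 13.1 CPM in wild-type and between 5.06 and 6.42 CPM in Zeb1 (+/-).

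Within a genotype the members varied somewhat more than genes at large, with a median coefficient of variation of 10.5% in wild-type and 11.1% in Zeb1 (+/-), beside 8.46% and 7.95% for all tested genes. The members and all tested genes were not matched for level in this comparison. Sqle was the most variable member in wild-type (32.1%) and Elovl6 in Zeb1 (+/-) (42.4%). Both had low counts, 52 to 212 in a library for Sqle and 60 to 161 for Elovl6. Of the 17 sterol enzymes, Zeb1 (+/-) replicate 1 was the lowest library for 7, among them Sqle, Cyp51 and Hmgcs1, and Zeb1 (+/-) replicate 2 was the lowest for 0 and the highest for 5. The median log2 deviation of the 17 from their own 6-library means was -0.09 in Zeb1 (+/-) replicate 1 and 0.14 and 0.12 in Zeb1 (+/-) replicates 2 and 3. The range of these medians between pools of 1 genotype, from -0.09 to 0.14, was wider than the genotype difference of the group (median 0.07). Zeb1 (+/-) replicate 1 also had the fewest counts, 17859872, of any library.

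In wild-type the medians of the 17 sterol enzymes lay closer together, at -0.03, -0.04 and -0.06, but single members differed. Against the mean of wild-type replicates 1 and 2, wild-type replicate 3 was higher by more than 0.5 on the log2 scale for 3 members, Sqle (0.75), Fads1 (0.56) and Scd1 (0.54), and lower by more than that for 2, Scd2 (-0.78) and Mvd (-0.56). Idi1 was just inside that limit at 0.50. These 6 genes have no direction in common. For 12 of the 30 members wild-type replicate 3 lay within the Zeb1 (+/-) range.

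**Figure D5:**
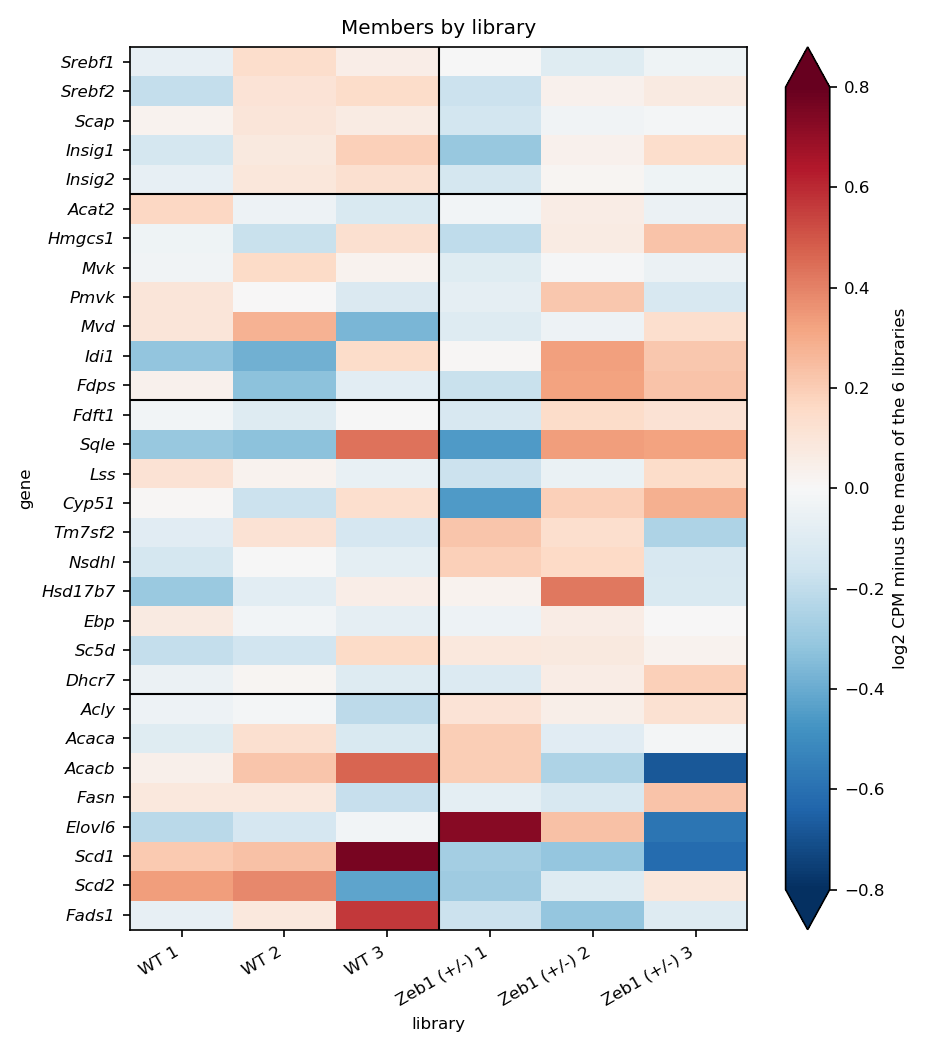
Log2 CPM of each tested member minus its own mean over the 6 libraries, with 1 column for each library and lines between role groups and genotypes. Red is above and blue below the mean. Scd1 and Fads1 are red in wild-type replicate 3 and blue in Zeb1 (+/-), while Sqle and Cyp51 are bluest in Zeb1 (+/-) replicate 1.

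Other genes of sterol and fatty acid handling were counted from 5 lists, which were chosen with earlier results of these data known. In the edgeR fit with its filter 0 genes of any of them passed the threshold. Without the filter, where 2.47% of all genes passed (1.49% lower), 4 genes of the lists passed. Stard4, a sterol transfer protein gene on chromosome 18 named after its values were seen, was higher (0.48, edgeR adjusted p = 0.0144). The others, Abca1, Abcg1 and Mylip of the LXR list, were lower. Of 9 further sterol synthesis genes 8 had log2 fold changes above 0, with a median of 0.11, and 8 of the 9 had intervals within 1.5-fold. Of 9 genes of SREBP processing and turnover all 9 had intervals within 1.5-fold, with a median of 0.02. The gene with the smallest p was Rnf145, a ubiquitin ligase gene of the endoplasmic reticulum that acts on SCAP, with a log2 fold change of -0.26 (edgeR adjusted p = 0.285). Of 8 tested genes of sterol uptake and transfer 3 were higher and 1 lower at an unadjusted p under 0.05, where 6.3% of all genes were higher and 8.26% lower. The lower one, Npc1, which moves cholesterol out of lysosomes, was at 77.4, 89.7 and 79.4 CPM in wild-type and at 64.1, 65.1 and 73.3 CPM in Zeb1 (+/-) (log2 fold change -0.28, edgeR adjusted p = 0.172). Npc1 lies on chromosome 18, as Zeb1 does, and the part of DNA linked to the targeted allele was not tested. Of 17 tested genes of further fatty acid and lipid assembly 1 was higher and 1 lower at that limit, beside the same shares of all genes. The smallest p was that of Hsd17b12, an elongation-cycle reductase, with a log2 fold change of 0.17 (edgeR adjusted p = 0.317).

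The LXR list was the one whose median was farthest below 0, at -0.13 over 11 tested genes. At an unadjusted p under 0.05, 4 of the 11 were lower and 0 higher, where 8.26% of all genes were lower, and 4 had groups that did not overlap on the lower side (10.3% of all genes). The list was chosen with earlier results of these data known, so these shares are no test of the list as a whole. Abca1, the exporter that loads cholesterol onto apolipoproteins, was at 206, 227 and 230 CPM in wild-type and 175, 127 and 158 CPM in Zeb1 (+/-). All 3 Zeb1 (+/-) libraries lay below wild-type, with a log2 fold change of -0.53 ± 0.11 (SE; edgeR adjusted p = 0.0832). The genes that follow were named after their values were seen. Mylip, an LXR target that encodes a ubiquitin ligase, was at 64.6, 60.3 and 49.98 CPM and at 45.6, 32.1 and 47.5 CPM (log2 fold change -0.49, edgeR adjusted p = 0.190). Abcg1, a second exporter, was at 61.4, 59.8 and 38.1 CPM and at 40.4, 30.5 and 45.2 CPM. Wild-type replicate 3 of Abcg1 lay inside the Zeb1 (+/-) range, and its log2 fold change was -0.47, or -0.65 without that library. Cyp27a1, which makes an oxysterol, had a log2 fold change of -0.25. The receptor genes Nr1h2 and Nr1h3 both stood at -0.13, with edgeR adjusted p = 0.349 and 0.724. In the other direction, 3 genes of the list were above 0, Cyp7b1 (0.38), Lpcat3 (0.11) and Soat1 (0.07), each with an interval that includes 0.

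DESeq2 called 2 genes of this list lower, Abca1 and Mylip, where it called 1.85% of all genes lower. The edgeR fit without a filter called 3 lower, Abca1, Abcg1 and Mylip, where it called 1.49% of all genes lower. With the B cell covariate the median of the list was -0.20, with Abca1 at -0.44, Mylip at -0.81 and Abcg1 at -1.09. With the structural RNA class as a term the median of the list was 0.01, with Abca1 at -0.59, Mylip at -0.27 and Abcg1 at 0.02. Scd1, an LXR target among the members, and Abca1 stayed below 0 in all 15 other settings, with ranges of -1.16 to -0.22 and -0.63 to -0.40. Srebf1, another LXR target, was between -0.14 and -0.04 in them. All settings use the same libraries, so a sign kept across them is not independent evidence.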

How the data were processed

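The table holds estimated counts (RSEM-type expected counts) per gene for 6 libraries, deposited by the authors. Per the submitters' processing notes, STAR, RSEM and edgeR were used on GRCm38; versions and roles are not given in the sources used here. RNA was extracted with RNAzol and libraries made with a stranded TruSeq mRNA kit, per the labels' protocols. All values are whole numbers, so they appear to have been rounded before deposit, and no further rounding was needed. Columns were matched to samples by the identifier in each description. Members were matched by symbol, and coordinates and merged exon lengths came from GENCODE M21, in which 99.3% of gene identifiers matched without their version. Promoter sequences came from RefSeq.

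Genotype was tested in R 4.3.3 with edgeR 4.0.16 (filterByExpr defaults, TMM factors of 0.976 to 1.01, quasi-likelihood F test), with p-values adjusted over all 12940 tested genes by the Benjamini-Hochberg method and a threshold of 0.05. The SE is the absolute log2 fold change over the root of F. Library totals times TMM factors make 1 CPM equal to 17.9 to 42.3 counts. Alternatives were RLE factors, 2 other filters, the Set number as a block, robust moderation, DESeq2 1.42.0, limma-voom (limma 3.58.1), an adjusted p under 0.1, each library left out, the structural RNA class as a term and the mean of the B cell markers as a covariate. The fit was tested on simulated data in which libraries differed only in depth, random spread and changes put in by genotype. That test does not cover the differences in B cell markers or structural RNA described above. The members and lists were chosen with earlier results of these data known. Values for every library are given for the regulators, for members whose groups did not overlap, for the member of each role group with the highest level per length, and for the 3 highest and 3 lowest log2 fold changes at a mean of at least 2 CPM. From each list of other genes the one with the smallest p is named, except that some genes of these lists are not reported here.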

Additional observations from a re-analysis of the deposited data

How the results depend on the processing

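The count of 0 members past the threshold did not hold in every setting. Of the 15 other fits, 12 called 0 members. Without a filter on low counts there was 1 member higher (Idi1) and 1 lower (Scd1), with 207 genes higher and 315 lower in all. DESeq2 called 1 member lower (Scd1), with 110 and 221 genes. With the structural RNA class as a term there was 1 lower (Scd1), with 4 and 27 genes, and at an adjusted p under 0.1 there was 1 lower (Scd1), with 61 and 153 genes. The call with the structural RNA class rests on wild-type replicate 3 as the only wild-type library compared. The edgeR fit as reported had 20 genes higher and 56 lower. With the B cell markers as a covariate edgeR called 0 genes higher and 0 lower, though 1930 had an unadjusted p under 0.05. With the Set number as a replicate block there were 6 higher and 9 lower, and 0 members. Deviations of same-numbered libraries from their group means correlated at -0.42, -0.09 and -0.34. With 3 libraries of each genotype such correlations cannot decide whether the numbers pair samples, and the labels do not say. Leaving out 1 library gave 4 to 36 genes higher and 1 to 91 lower, and 0 members in each of the 6 fits. The fewest came without wild-type replicate 2 (4 and 1) and without Zeb1 (+/-) replicate 2 (6 and 5), then without Zeb1 (+/-) replicate 1 (13 and 15). The most came without Zeb1 (+/-) replicate 3 (36 and 91), and 30 genes were higher without wild-type replicate 3. The median of the members lay between -0.0048 and 0.06 over all fits.

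Of the 30 tested members, 18 changed sign in at least 1 other fit. With the structural RNA class as a term Mvd was at 0.37 and Scd2 at 0.33. With the B cell covariate Fads1 was at 0.040, Srebf2 at 0.012 and Ebp at -0.068. With 1 library left out Srebf2 ran from -0.14 to 0.033, Insig1 from -0.16 to 0.048, Mvd from -0.18 to 0.10 and Ebp from -0.016 to 0.056. The cause was not tested. Depth limits Acacb and Fads2, with 15 to 26 and 0 to 3 counts in a library.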
